A study of Homo sapiens with 4 samples.

Results

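UHMK1, CAPZA1, RMND5A and SMIM13 each had at least 1 probe among the lowest ratios of AEG-1-knockdown over control cells, apart from the knockdown target itself, and they are described here probe by probe beside the paralogs CAPZA2, CAPZB and RMND5B. The 4 genes were chosen by their low log2 ratios of SB over SCt cells in this same comparison, so their values are given as a description and carry no test. The 3 paralogs were chosen for their relation to CAPZA1 and RMND5A and not for their values, although earlier results of these data were known then. These genes together are 7 of the 19062 genes that could be named on the array and had 13 of its 34127 probes. Of these probes, 8 were for the genes chosen for their fall and 5 for the paralogs. All 13 passed the filter on dim probes, exceeded background clearly in either channel of each of the 4 arrays, and were printed as 1 spot per array.

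AEG-1 (MTDH, also called LYRIC) was knocked down in SAS cells, a human tongue squamous carcinoma line. SB cells stably carried the lentiviral pLKO.1 vector with LYRIC shRNA-B, and SCt control cells carried pLKO.1, which the labels describe as the vector and the methods describe as holding a scrambled shRNA. Stable clones of both were selected over 14 days in puromycin at 2 μg/ml. Total RNA of both cell types, 15 μg for each labelling, was hybridized together on each of 4 dual-color Agilent arrays, with SB in the red channel and SCt in the green channel. The labels call the 4 arrays biological replicates without naming separate cultures, so the SDs and p-values below may cover technical spread only. With 0 dye-swapped arrays, a preference of a probe for one dye cannot be told apart from a difference between SB and SCt cells. With 1 shRNA, an effect of lower AEG-1 and an effect of that shRNA on other transcripts cannot be told apart either. The same holds for a difference between the stable SB and SCt clones that does not come from the knockdown.

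Across the arrays, between 84.7% and 90.3% of the spots were well above background in a channel, and no spot was saturated. The MTDH probe fell 9.07-fold in SB cells (log2 ratio −3.18 ± 0.17, SD, n = 4). Of the kept probes, 1055 of 28505 passed an adjusted p of 0.05 by limma (679 lower and 376 higher in SB), and without array 3 the number was 204. Centring each array on its median in place of the loess curve gave 8937 calls with the opposite balance, 3338 lower and 5599 higher. All 10 squamous epithelial markers examined stood well above background in either channel of every array, but so did 9 of 10 markers of other cell types, so this flag did not separate the labelled cell type from others.

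UHMK1 encodes KIS, a serine/threonine kinase with a U2AF homology motif, which phosphorylates the splicing factor SF1, stathmin and the cell cycle inhibitor p27. CAPZA1 and CAPZA2 encode alternative alpha subunits and CAPZB the beta subunit of capping protein, the heterodimer that binds the barbed ends of actin filaments and stops their growth. It caps the filaments that the Arp2/3 complex branches at the leading edge of moving cells, and it is also part of dynactin. RMND5A and RMND5B are RING subunits of the CTLH complex, a ubiquitin ligase related to yeast GID. SMIM13 encodes a small integral membrane protein.

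The promoters of the 4 genes chosen for their fall are shown because most of their probes had low ratios on the same arrays, and that of CAPZA2 because it can be compared with that of CAPZA1. Each runs from 250 bases before to 50 bases after the transcription start, 5′ to 3′ on the coding strand, from RefSeq (GRCh38.p14). All 5 genes lie on the plus strand. Capitals mark exact matches, on either strand, to the GC box GGGCGG, to the CCAAT box, to the ETS core CCGGAAG or to the YY1 core AAGATGGC.
UHMK1, chr1:162497555-162497854: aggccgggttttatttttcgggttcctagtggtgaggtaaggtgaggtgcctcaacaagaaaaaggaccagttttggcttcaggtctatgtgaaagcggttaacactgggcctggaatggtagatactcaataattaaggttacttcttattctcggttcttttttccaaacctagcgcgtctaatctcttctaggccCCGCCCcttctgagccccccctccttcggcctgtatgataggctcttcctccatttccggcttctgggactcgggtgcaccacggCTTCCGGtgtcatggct
CAPZA1, chr1:112619582-112619881: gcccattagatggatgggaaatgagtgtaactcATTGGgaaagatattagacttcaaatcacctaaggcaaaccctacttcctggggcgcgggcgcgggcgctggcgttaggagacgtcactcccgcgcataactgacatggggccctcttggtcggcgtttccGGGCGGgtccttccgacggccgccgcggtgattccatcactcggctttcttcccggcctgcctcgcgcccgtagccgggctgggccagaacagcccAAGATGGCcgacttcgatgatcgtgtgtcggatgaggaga
RMND5A, chr2:86720041-86720340: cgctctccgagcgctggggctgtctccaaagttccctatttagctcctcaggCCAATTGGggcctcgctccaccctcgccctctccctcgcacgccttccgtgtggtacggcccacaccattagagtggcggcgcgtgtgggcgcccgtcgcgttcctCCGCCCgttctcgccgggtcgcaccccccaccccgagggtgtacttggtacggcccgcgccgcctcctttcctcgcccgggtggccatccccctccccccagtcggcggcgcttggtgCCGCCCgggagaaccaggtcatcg
SMIM13, chr6:11093584-11093883: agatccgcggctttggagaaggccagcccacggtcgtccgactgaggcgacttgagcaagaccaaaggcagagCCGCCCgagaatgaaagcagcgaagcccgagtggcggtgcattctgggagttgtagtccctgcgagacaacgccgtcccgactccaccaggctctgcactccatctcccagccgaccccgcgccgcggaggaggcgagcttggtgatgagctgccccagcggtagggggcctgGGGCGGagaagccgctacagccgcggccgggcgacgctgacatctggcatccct
CAPZA2, chr7:116862337-116862636: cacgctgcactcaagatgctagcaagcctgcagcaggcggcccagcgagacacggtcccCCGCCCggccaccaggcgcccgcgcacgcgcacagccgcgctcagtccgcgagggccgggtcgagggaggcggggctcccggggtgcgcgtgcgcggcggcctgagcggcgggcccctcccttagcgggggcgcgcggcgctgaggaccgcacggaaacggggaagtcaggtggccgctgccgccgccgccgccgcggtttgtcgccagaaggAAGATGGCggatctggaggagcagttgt
The UHMK1 window is the first of its 2 overlapping windows in the table.

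GGGCGG was present in the windows of all 7 genes, the paralogs included, against 45.0% of the 35116 windows of the table. CCAAT was found in those of CAPZA1, RMND5A, CAPZB and RMND5B, against 34.6% of all windows. In RMND5A, matches on both strands overlap, so that 1 run of capitals holds them. CCGGAAG was found in UHMK1 and RMND5B (10.3% of all windows). AAGATGGC was shared by CAPZA1, where it starts at base 11 after the start site, and CAPZA2, where it starts at base 23 (2.89% of all windows). Both matches thus lie in transcribed sequence and hold the letters ATG, and whether these are the start codons was not analysed here. These matches therefore did not separate the 4 genes with low ratios from the paralogs. No match was found in any of the 7 genes for the TATA box (TATAAA), the cAMP response element (TGACGTCA), the E-box (CACGTG), the AP-1 site (TGANTCA) or the NRF1 core. The GC content was 51.0% in UHMK1, 60.7% in CAPZA1, 67.0% in SMIM13, 70.7% in RMND5A and 75.3% in CAPZA2, with a median of 58.7% over all windows. The matches describe letters in these windows and no measured binding.

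In the comparison of SB with SCt cells, 6 of the 8 probes of the 4 genes had a mean log2 ratio under −1, a value that 0.0456% of all kept probes reached (13 probes). The ratios are the values that chose these genes, so the count describes the choice. In RNA from whole cultures, fewer cells with a transcript and less of it per cell cannot be told apart. The other 7 such probes were those of MTDH, MMP1, CPOX, PXDN, C5orf15 (2 probes) and a transcript without a matched gene symbol. The rule gave no numeric threshold. Among those values, SMIM13 ranked 9 from the lowest at −1.11 and CPOX ranked just before it at −1.12, while PXDN followed at −1.07. The normalized log2 levels of SB and SCt cells did not overlap over the 4 arrays for 7 of the 8 probes, a pattern found in 1.12% of the 28128 kept probes with values on all 4 arrays, and they overlapped for 5 of the 5 paralog probes. Like the count under −1, the count of 7 follows from the ratios that chose these genes.

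**Figure D1:**
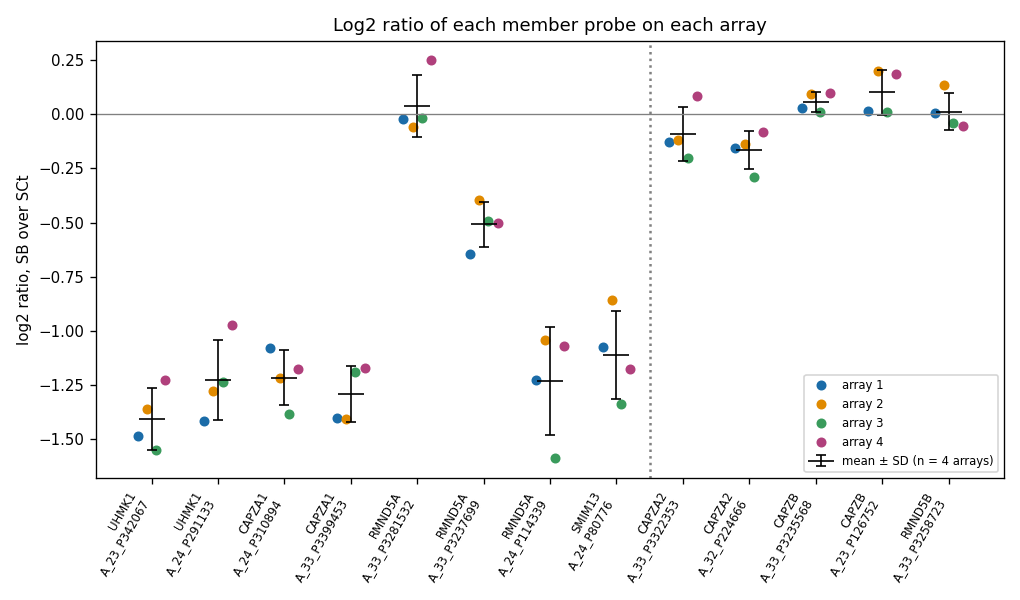
Log2 ratio of SB over SCt cells (vertical axis) for each of the 13 probes (horizontal axis), with 1 point per array and the mean ± SD over 4 arrays as bars. To the left of the dotted line, 6 probes lie under −1 on average, while RMND5A spreads from 0.04 to −1.23 over its 3 probes. The paralogs on the right lie between −0.17 and 0.10.

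UHMK1 had 2 probes. For A_23_P342067, the normalized log2 level in SCt cells was 11.85, 11.85, 12.11 and 11.93 on arrays 1 to 4, and in SB cells it was 10.36, 10.49, 10.56 and 10.70. Every SB level thus lay below every SCt level, by 1.14 between the closest pair. The log2 ratio was −1.49, −1.36, −1.55 and −1.23, or −1.41 ± 0.14 (SD, n = 4), which leaves 37.8% of the SCt level. Among the 28505 kept probes it ranked 3 from the lowest, and its rank on single arrays was 3 or 4. The second probe, A_24_P291133, read 11.68, 11.41, 11.49 and 11.16 in SCt cells and 10.26, 10.13, 10.26 and 10.19 in SB cells. Its SB levels lay close together and its SCt levels were more spread, without overlap. Its log2 ratio was −1.42, −1.28, −1.23 and −0.97, with a mean of −1.23 ± 0.19, or 42.8% of SCt. The first probe was lower than the second on each of the 4 arrays, by 0.07 to 0.31 on the log2 ratio scale. On the mean over the arrays, the first minus the second was −0.18. Over the other kept probes of all genes with several (3951 genes), the median size of the difference in that mean from the brightest probe was 0.09.

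CAPZA1, one of the alpha subunits of capping protein, also had 2 probes. A_24_P310894 read 12.78, 12.96, 13.00 and 12.87 in SCt cells and 11.70, 11.74, 11.61 and 11.69 in SB cells. The levels varied little within either cell type and stood apart on every array. The log2 ratio was −1.08, −1.22, −1.39 and −1.18 (mean −1.22 ± 0.13), or 43.1% of SCt. A_33_P3399453 read 11.98, 11.90, 11.75 and 12.06 in SCt cells and 10.58, 10.49, 10.57 and 10.89 in SB cells. Again no levels overlapped, and array 4 held the highest level in both cell types. Its log2 ratio was −1.40, −1.41, −1.19 and −1.17 (mean −1.29 ± 0.13), or 40.9% of SCt. Neither probe was lower throughout: the difference between them ranged from −0.20 to 0.32 over the arrays, with a mean of 0.08. CAPZA1 has 5 pseudogenes by symbol in the RefSeq table, none with a named probe, and the share of its signal that they contribute was not tested.

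RMND5A was read by 3 probes, all assigned to the same RefSeq transcript, and they differed. A_33_P3281532 read 12.01, 12.27, 12.26 and 12.02 in SCt cells and 11.99, 12.21, 12.24 and 12.27 in SB cells. These levels overlapped, and SB was the higher on array 4 alone. The log2 ratio was −0.02, −0.06, −0.02 and 0.25 (mean 0.04 ± 0.14). A_33_P3237699 read 10.62, 10.95, 10.97 and 10.83 in SCt cells and 9.98, 10.56, 10.48 and 10.33 in SB cells. All SB levels of this probe lay below all SCt levels, although by a narrow margin. Its log2 ratio was −0.64, −0.40, −0.49 and −0.50 (mean −0.51 ± 0.10), or 70.3% of SCt. A_24_P114339 read 9.87, 10.33, 10.33 and 9.68 in SCt cells and 8.64, 9.28, 8.74 and 8.61 in SB cells. Array 2 held its highest SB level, which was still below the lowest SCt level. Its log2 ratio was −1.23, −1.04, −1.59 and −1.07 (mean −1.23 ± 0.25), or 42.6% of SCt.

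The order of the 3 RMND5A probes was the same on all 4 arrays. The ratio of A_33_P3281532 exceeded that of A_24_P114339 by 1.27 ± 0.24 on average (0.98 to 1.57 over the arrays), and that of A_33_P3237699 exceeded it by 0.72 ± 0.25. A_33_P3281532 exceeded A_33_P3237699 by 0.55 (0.34 to 0.75). The ratio of A_33_P3281532 ranked 17391 from the lowest among kept probes, that of A_33_P3237699 ranked 80 and that of A_24_P114339 ranked 5. A_33_P3281532 was the brightest of the 3, so a summary that takes the brightest probe of a gene reads RMND5A at 0.04. Where the probes lie along the transcript was not analysed here.

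SMIM13 had a single probe, A_24_P80776. Its normalized log2 level was 8.26, 8.37, 8.65 and 8.31 in SCt cells and 7.19, 7.52, 7.31 and 7.13 in SB cells. The levels did not overlap, and array 3 held the highest SCt level while array 2 held the highest SB level. The log2 ratio was −1.08, −0.86, −1.34 and −1.18 (mean −1.11 ± 0.20), or 46.3% of SCt. Its signal was the weakest among the probes of the 4 genes, at percentile 21.3 of the kept probes, where the others lay between percentiles 44.1 and 79.9. The processed signal given by the scanner software was 55.8, 76.9, 123.5 and 63.8 in SB cells and 169.9, 177.9, 392.45 and 212.9 in SCt cells. With these software signals, whose background is subtracted without an added offset, the mean log2 ratio of SMIM13 was −1.56, and under normexp without the offset of 50 it was −1.44. With no background correction at all, the mean log2 ratio was −1.21. The software ratios also did not pass through the loess step used here, so background is not their only difference. The size of the fall thus differed between settings, while its sign did not, and the cause was not tested.

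**Figure D2:**
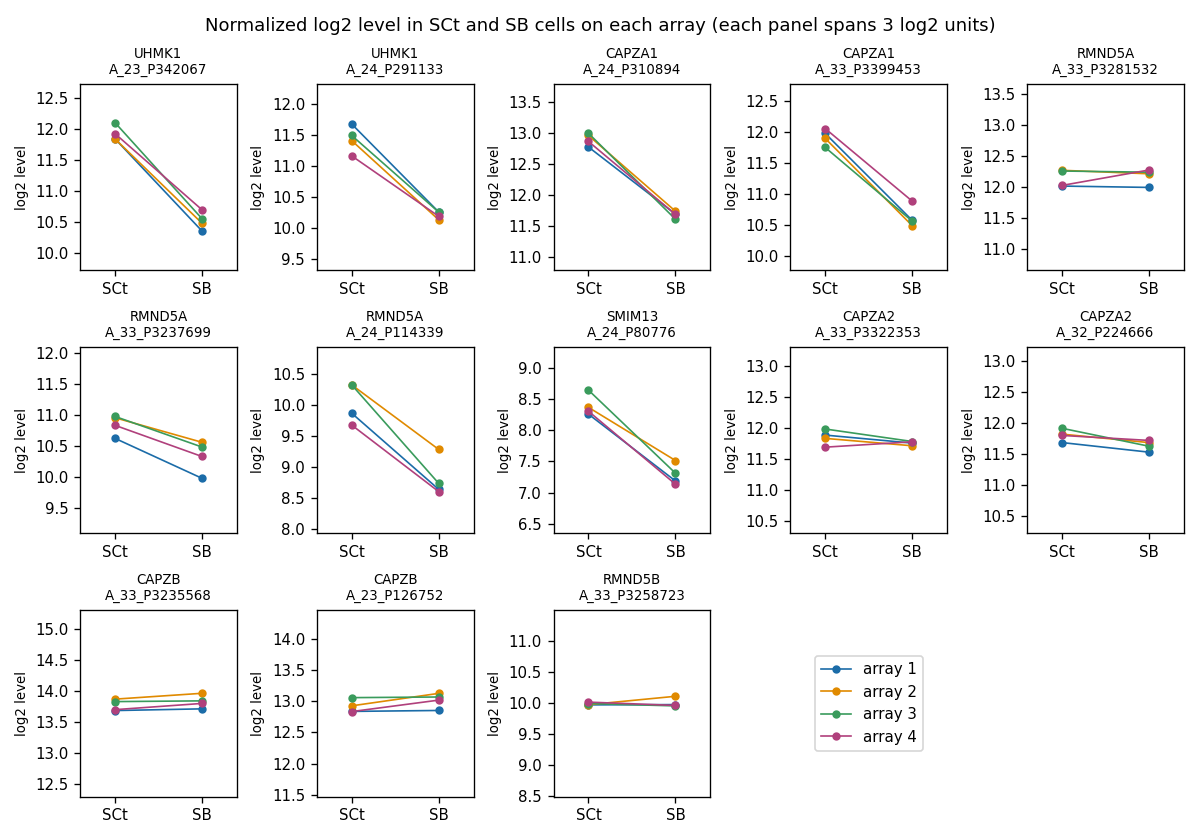
Normalized log2 level of each of the 13 probes in SCt and SB cells, with 1 line per array joining the 2 channels and each panel spanning 3 log2 units. All 4 lines slope down in 7 of the 8 panels of UHMK1, CAPZA1, RMND5A and SMIM13, and those of RMND5A A_33_P3281532 and the paralogs are nearly flat.

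None of the 5 paralog probes passed an adjusted p of 0.05 by limma, against 3.7% of all kept probes (2.38% lower and 1.32% higher in SB). Of the 5, 1 had an unadjusted p under 0.05 by limma, and the methods' t-test also gave 1 at that level and 0 after adjustment. Over all 28505 kept probes, the methods' t-test gave 3936 at an unadjusted p under 0.05. The number by limma at that level was not counted, so no excess can be read from the unadjusted counts here or below. CAPZA2, the other alpha subunit, had log2 ratios of −0.13, −0.12, −0.20 and 0.09 at A_33_P3322353. SB was the lower cell type on 3 arrays and the higher on array 4. The mean was −0.09 ± 0.12 (95% interval −0.23 to 0.04, limma adjusted p = 0.473). The other CAPZA2 probe, A_32_P224666, had −0.15, −0.14, −0.29 and −0.08, below 0 on all 4 arrays. Its mean was −0.17 ± 0.09 (95% interval −0.29 to −0.04), with a limma p of 0.0149 that became 0.147 after adjustment. CAPZB, the beta subunit that pairs with either alpha subunit, had 0.03, 0.09, 0.01 and 0.10 at A_33_P3235568 and 0.01, 0.20, 0.01 and 0.18 at A_23_P126752. All 8 of these values were slightly above 0. The means were 0.06 ± 0.05 (95% interval −0.06 to 0.18, limma adjusted p = 0.616) and 0.10 ± 0.10 (−0.03 to 0.23, adjusted p = 0.389). With each array centred on its median in place of loess, the brighter CAPZB probe read 0.28 with a limma adjusted p of 0.00786. That setting called 8937 of the 28505 kept probes, 5599 of them higher in SB.

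RMND5B, the paralog of RMND5A, had log2 ratios of 0.00, 0.14, −0.04 and −0.05 at A_33_P3258723, on both sides of 0. Its mean was 0.01 ± 0.09 (95% interval −0.11 to 0.14, limma adjusted p = 0.939). Over the processing alternatives, the mean of the brighter CAPZA2 probe ranged from −0.15 to 0.03 and that of RMND5B from −0.03 to 0.09, so both took either sign. For every pairing of a CAPZA1 with a CAPZA2 probe, CAPZA1 had the lower log2 ratio on all 4 arrays, and the difference of the 2 ratios ranged from −1.29 to −0.90. The ratio of RMND5B taken from that of RMND5A A_24_P114339 gave −1.55 to −1.02 on single arrays, and from that of A_33_P3237699 it gave −0.65 to −0.45. From that of A_33_P3281532 it gave −0.19 to 0.30. These differences include the values that chose CAPZA1 and RMND5A and were not tested.

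**Figure D3:**
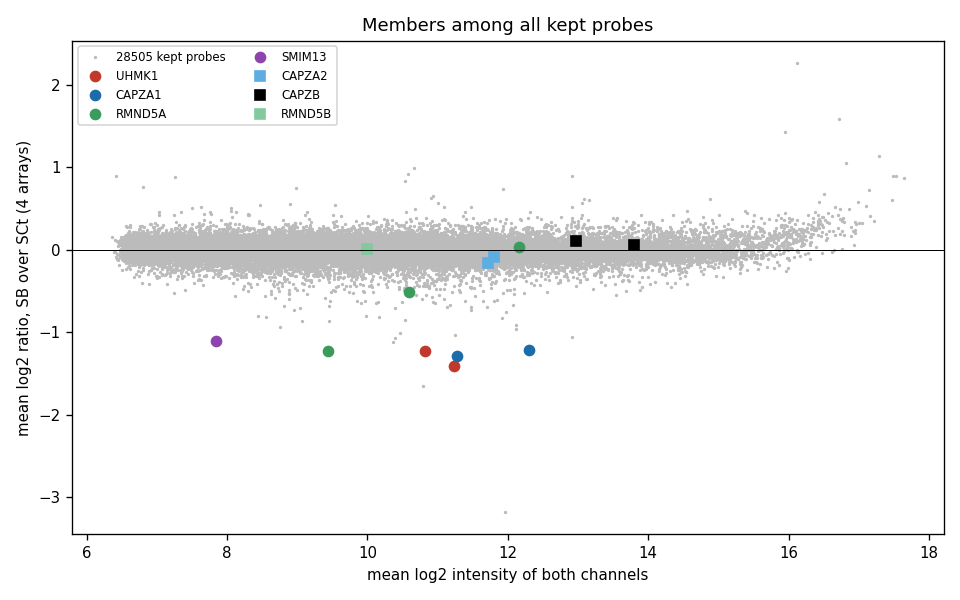
Mean log2 ratio of SB over SCt over 4 arrays (vertical axis) against the mean log2 intensity of both channels (horizontal axis) for the 28505 kept probes (grey), with the genes chosen for their fall as colored circles and the paralogs as squares. The 6 low probes of UHMK1, CAPZA1, RMND5A and SMIM13 lie below the band of other probes from weak to strong signal, and the paralog squares lie inside it.

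Capping protein works with proteins that bind it, steer it or remove it from filament ends. The list examined held 15 genes other than CAPZA1, CAPZA2 and CAPZB, most of them such regulators, with the further alpha subunit CAPZA3 and the separate capping protein CAPG, and 13 had a kept probe (not WASHC2A or RCSD1). By limma 3 fell and 0 rose, against 2.97% of genes lower and 1.22% higher over all 16582 genes with each gene read by its brightest probe. The list's median log2 ratio was 0.01 and that of all genes 0.00. TWF1, a twinfilin that binds actin monomers and capping protein, had −0.37, −0.46, −0.64 and −0.46. All 4 values lay well below 0, with a mean of −0.48 ± 0.11 (limma adjusted p = 0.00135). SH3KBP1 (CIN85), an adaptor with a capping protein interaction motif, fell by 0.31 on the log2 scale (SD 0.13, adjusted p = 0.0199). Its 2 other probes differed, at −0.24 (limma adjusted p = 0.0371) and 0.03 (adjusted p = 0.828). The related adaptor CD2AP fell by 0.29 (SD 0.12, limma adjusted p = 0.0242). TWF1 passed the limma threshold without any 1 array, whereas CD2AP and SH3KBP1 both missed it without array 2 (adjusted p = 0.0679 and 0.0899) and without array 3 (0.165 and 0.130). The methods' t-test called 0 of the 13 genes. The highest value of the list was that of CRACD, an inhibitor of capping protein, at 0.14 ± 0.05 (limma adjusted p = 0.201).

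Of the Arp2/3 complex, which nucleates the branches that capping protein ends, 8 of 9 genes had a kept probe (not ARPC3). None passed the limma threshold, against 4.19% of all genes, and 4 had an unadjusted p under 0.05. The methods' t-test gave 3 at that level, against 3936 of the 28505 kept probes, and 0 after adjustment. The median was −0.10, and 7 of the 8 means were below 0, where 49.1% of all genes were. The lowest was ACTR2, an actin-related subunit, at −0.24 ± 0.14 (limma adjusted p = 0.0601), and the highest was ARPC4 at 0.01 ± 0.15. Without array 4, 2 of these genes passed the limma threshold, both lower in SB. Over all kept probes, 1977 of 28470 passed without array 4 (1126 lower and 851 higher). In dynactin, 9 of 9 genes apart from the capping protein subunits were measured. By limma 0 passed, against 4.19% of all genes, with 0 at an unadjusted p under 0.05 by either test. Their values ran from −0.12 ± 0.12 for DCTN4 to 0.11 ± 0.10 for DCTN3, with a median of −0.04.

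In the CTLH complex, all 9 listed genes other than RMND5A and RMND5B were measured. By limma 1 fell and 0 rose, against 2.97% of all genes lower and 1.22% higher. GID8, a scaffold subunit, had −0.26, −0.19, −0.37 and −0.14, below 0 on every array. Its mean of −0.24 ± 0.10 passed narrowly (limma adjusted p = 0.0483), and this was lost under 10 of 15 alternatives, among them leaving out array 1, 2 or 3 (adjusted p = 0.124, 0.140 and 0.218). The list's median was −0.03. MAEA, the RING partner of RMND5A, was at −0.10 ± 0.16 (limma adjusted p = 0.475). MKLN1 was at −0.19 ± 0.08 (limma adjusted p = 0.0904), and the highest value was 0.09 for GID4, which had values on 2 arrays.

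Among 13 genes of U2AF homology motif proteins, their partners and substrates of UHMK1, all were measured. By limma 0 passed, against 4.19% of all genes, with 3 at an unadjusted p under 0.05. The methods' t-test gave 2 at that level, against 3936 of the 28505 kept probes, and 0 after adjustment. The median was 0.01. The lowest was RBM17, a splicing factor with such a motif, at −0.21 ± 0.26 (limma adjusted p = 0.214). The highest was CDKN1B, which encodes the UHMK1 substrate p27, at 0.23 ± 0.10 (limma adjusted p = 0.0563). The other substrates SF1 and STMN1 were at −0.01 ± 0.21 and −0.07 ± 0.08. Centring on the median gave 4 calls in this list, all higher in SB. That setting called 8937 of the 28505 kept probes, 3338 lower and 5599 higher, so the 4 calls do not set the list apart.

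**Figure D4:**
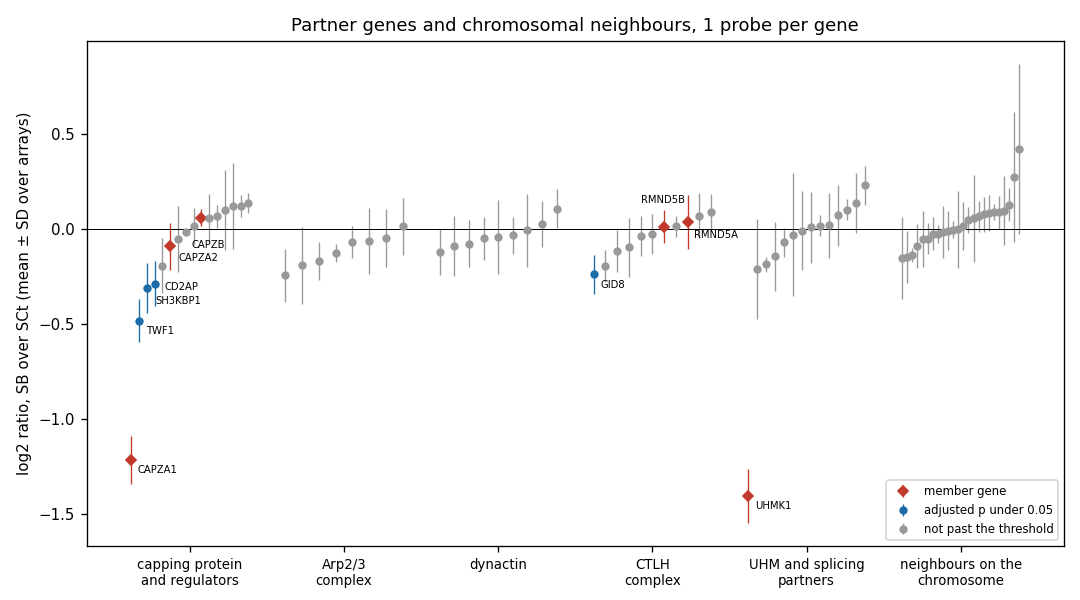
Log2 ratio of SB over SCt (vertical axis, mean ± SD over arrays) of each listed gene, 1 brightest kept probe per gene, in order within each list, with the 24 chromosomal neighbors at the right. CAPZA1 and UHMK1 lie at −1.22 and −1.41, the 4 called genes TWF1, SH3KBP1, CD2AP and GID8 lie between −0.48 and −0.24, and RMND5A appears at 0.04 because its brightest probe is drawn.

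The genes around the 4 loci were read as well, taking the 3 nearest on each side with a kept probe. None of these 24 neighbors passed the limma threshold, against 4.19% of all genes, and 5 had an unadjusted p under 0.05. The methods' t-test gave 2 at that level, against 3936 of the 28505 kept probes, and 0 after adjustment. Around UHMK1 on chromosome 1, the values ran from −0.15 (UAP1) to 0.13 (HSD17B7), with SPATA46 at 0.09, C1orf226 at 0.09, SH2D1B at 0.10 and DDR2 at 0.07. Around CAPZA1 on the same chromosome, they ran from −0.15 (WNT2B) to 0.08 (PPM1J), with CTTNBP2NL at −0.14, ST7L at −0.02, MOV10 at −0.09 and RHOC at −0.05. All 12 means lay far above the log2 ratios of UHMK1 and CAPZA1, which follows from the choice of these genes for their low ratios. Next to RMND5A on chromosome 2, KDM3A and CHMP3 were at −0.0018 and −0.0029, RNF103 was at −0.02, CD8B at 0.01, RGPD1 at 0.06 and CD8A at 0.27 ± 0.34. Next to SMIM13 on chromosome 6, MAK was at −0.01, GCM2 at 0.08, ELOVL2 at 0.05, ERVFRD-1 at −0.03 and TMEM170B at −0.05, and the highest was NEDD9, a focal adhesion scaffold, at 0.42 ± 0.45 (limma adjusted p = 0.0945). Without array 4, 2 of the 24 passed, both higher in SB, where 1977 of 28470 kept probes passed (1126 lower and 851 higher). With median centring 10 passed (3 lower, 7 higher), where 8937 of 28505 kept probes passed (3338 lower and 5599 higher).

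Likeness of pattern was measured as the root mean square difference of the log2 ratios over the 4 arrays, taken from the probe with the lowest mean of UHMK1, CAPZA1, RMND5A or SMIM13 to the closest kept probe of each other gene. The gene other than the members closest to UHMK1 was CPOX, coproporphyrinogen oxidase of heme synthesis, at 0.336, followed by the peroxidase PXDN at 0.346 and the collagenase MMP1 at 0.356. To CAPZA1, the closest were PXDN at 0.244, C5orf15 at 0.293 and CPOX at 0.295. RMND5A had CPOX at 0.210, C5orf15 at 0.239 and PXDN at 0.255. SMIM13 had C5orf15 at 0.128, CPOX at 0.157 and PXDN at 0.194. Within the set, UHMK1 and CAPZA1 had each other as nearest member by some probe (0.189 from the UHMK1 probe and 0.120 from the CAPZA1 probe), CAPZA1 was nearest to RMND5A (0.163), and RMND5A was nearest to SMIM13 (0.180). All these genes were read on the same 4 arrays, and the measure counts the depth of a low ratio as well as its course over the arrays. The members were chosen by these same ratios, so their nearness to one another and to other low genes follows from that choice.

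**Figure D5:**
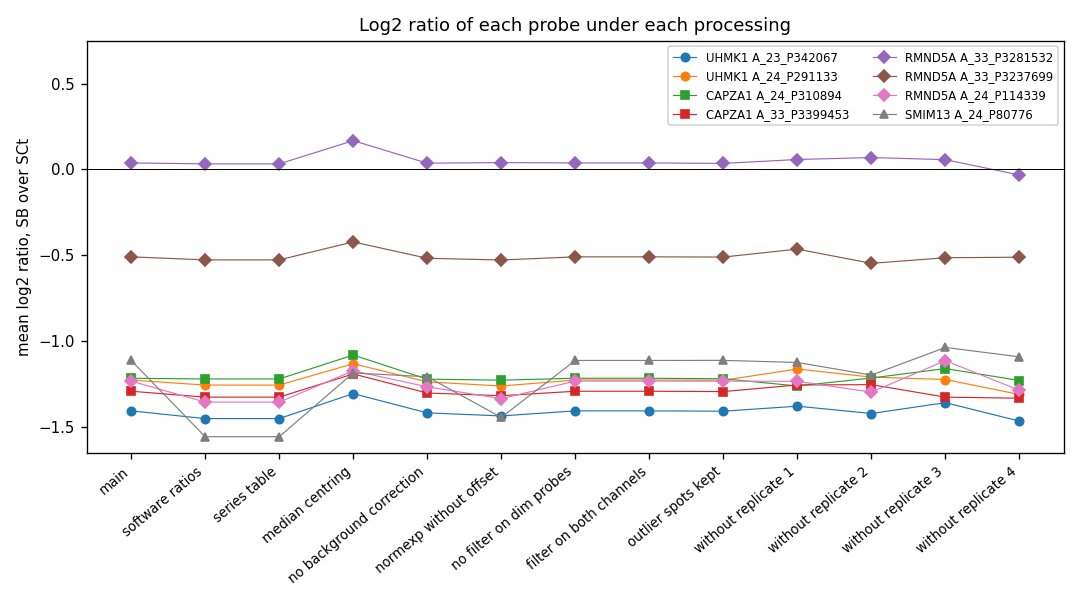
Mean log2 ratio of SB over SCt (vertical axis) of the 8 probes of UHMK1, CAPZA1, RMND5A and SMIM13 under the processing used in the text and 12 alternatives (horizontal axis). The probes with means under −1 stay under −1 throughout, SMIM13 moves to −1.56 with the software ratios and the series table, and RMND5A A_33_P3281532 stays between −0.03 and 0.17.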

How the data were processed

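For each array, the authors deposited the output of the scanner software Agilent Feature Extraction 10.5.1.1 (version from the submitters' processing notes), with red and green median intensities and local backgrounds on a linear scale, not normalized. The same deposited files hold the software's own log10 ratio of red over green. The authors also deposited a table of log2 values for the series, which equalled the software's ratios of SB over SCt within 0.001 for 98.7% to 99.1% of probes on each array.

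With R 4.3.3 and limma 3.58.1, the steps were normexp background correction (offset 50), loess within each array, outlier spots (814 to 1168 per array) left out, spots of a probe averaged. Fold changes understate those of weak probes because of the offset. Probes were kept that exceeded background on all 4 arrays in 1 and the same channel and had values on at least 2 arrays (28505 of 34127). Log2 ratios were tested against 0 by lmFit and eBayes, with Benjamini-Hochberg adjustment over all kept probes. Channel levels were those after loess and Aquantile. The number of arrays limits the precision. The steps were tested on simulated data. These held independent noise for each probe and no preference of single probes for a dye, so they say nothing about such a preference.

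Probes were named by accession in the RefSeq table (24826 matched, 9301 not). The file headers name an earlier build, so no probe positions are given. Named are all members with every probe, MTDH, called list genes (or the lowest and highest where none was called), neighbors, and for each of the 4 genes the 3 genes most like it. CAPZA3, CAPG, RCSD1, WASHC2A, ARPC3, MAEA, MKLN1, CRACD, SF1, STMN1 and GID4 were named outside that rule, after their values were seen. Members and lists were chosen with earlier results of these data known. Alternatives were the software ratios, the series table, median centring, no background correction, normexp without offset, keeping dim probes, filtering on both channels, keeping outlier spots, trended and robust eBayes, the mean over a gene's probes, the methods' t-test, and leaving out each array. Protein, probe and shRNA sequences were not analysed here.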

Additional observations from a re-analysis of the deposited data

Results flagged for a closer look

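Of 57 probes of the genes named in the text that were examined, 4 had 1 array far from the other 3, judged by its gap to the nearest value over the whole range against the 95% critical value of Dixon's test for 4 arrays, which chance exceeds in about 5% of groups. In each of these the array that stood apart was array 4. The RMND5A probe A_33_P3281532 had a gap of 0.877 of its range, with 0.25 on array 4 and −0.06 to −0.02 on the others. CTTNBP2NL, a neighbor of CAPZA1, had 0.876, with −0.08 on array 4 and −0.16 to −0.15 on the others. CHMP3, a neighbor of RMND5A, had 0.898, with 0.06 against −0.03 to −0.02. DCTN3 of dynactin had 0.842, with −0.04 on array 4 and 0.15 to 0.18 on the others. The cause was not tested.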

How the results depend on the processing

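The 8 probes of UHMK1, CAPZA1, RMND5A and SMIM13 kept their sign under all 12 alternatives, except that RMND5A A_33_P3281532 read −0.03 without array 4. Part of this was fixed in advance. Both changes of filter leave these values as they were, and the series table holds nearly the same ratios as the software. Leaving out 1 array cannot turn the sign of a probe that is below 0 on all 4 arrays. These ratios are also the ones that chose the 4 genes. CAPZA1 A_24_P310894 read −1.08 with median centring. SMIM13 read −1.56 with the software ratios, −1.56 with the series table and −1.44 with normexp without offset. CAPZB read 0.28 with median centring and then passed the limma threshold. The number of probes past an adjusted p of 0.05 was 698 with the series table, 8937 with median centring, 0 with the methods' t-test (3936 at an unadjusted p under 0.05), and 204 to 1977 with 1 array left out (638 without array 1, 421 without array 2, 204 without array 3, 1977 without array 4). The capping protein list had 6 calls with median centring (3 lower, 3 higher), 0 with the methods' t-test and 1 to 4 with 1 array left out. The Arp2/3 list had 1 with trend and robust eBayes and 0 to 2 with 1 array left out, and dynactin had 1 with median centring. The CTLH list had 0 with the software ratios, the series table, median centring, no background correction, normexp without offset, the methods' t-test and outlier spots kept, and 0 to 1 with 1 array left out. The list with UHMK1 partners had 4 with median centring, 1 with trend and robust eBayes and 0 to 1 with 1 array left out, and the neighbors 10 with median centring and 0 to 2 with 1 array left out. SH3KBP1 missed the threshold as the mean over its probes (−0.17, limma adjusted p = 0.0927), and CD2AP did with the software ratios (0.0735) and the series table (0.0784). Of the values under alternatives, 211 kept their direction and side of the threshold or moved by less than the spread, 18 fell short of a threshold or count, 12 exceeded one and 4 moved. The cause of these shifts was not tested. Median centring moved the median of all kept probes by 0.05.

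The test of the log2 ratio of each array is itself the paired analysis of SB and SCt RNA, and no other group shares the replicate numbers, so no further replicate block was fitted. The limits are 4 arrays of unstated culture origin, 1 shRNA, 1 cell line, 1 slide and 1 dye orientation. Effects of the dye, of the shRNA and of differences between the stable clones thus cannot be told apart from that of the knockdown. SMIM13, with the weakest signal, moved most between processing settings among the probes of the 4 genes, and the cause was not tested.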
